A study of Mus musculus with 5 samples.

Results

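The genes described here were the 1852 protein-coding genes of the mouse whose longest annotated transcript spanned less than 2000 bp (GENCODE models on mm9, nuclear chromosomes), out of 19597 coding genes that overlapped no other gene on their own strand. Clustered histone genes, odorant and vomeronasal receptor genes and ribosomal protein genes were left out by their symbols, which with the overlap rule reduced 3301 such short genes to 1852. Their median span was 994.5 bp, with a range of 54 to 1996 bp, and 1171 of them (63.2%) had a single exon. Predicted models without a name of their own made up 1139 of the 1852 (61.5%).

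Engaged RNA polymerase had been mapped by global run-on sequencing (GRO-seq), in which polymerases already on the DNA extend their RNA in isolated nuclei with a brominated nucleotide, so that reads give the position and strand of polymerase rather than stable RNA. MESC were V6.5 embryonic stem cells (3 samples, passages 12 to 14, kept with LIF on feeders that had been irradiated), and MEF were fibroblasts of passage 2 from male E13.5 embryos (2 samples, without LIF). Both came from the cross C57Bl/6(f) x 129/Sv(m), and no other treatment or allele is labelled. The deposited reads pooled the samples of each cell type, so every value below is that of 1 pooled library, no value has a spread between replicates, and no difference between the cell types was tested.

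Aligned reads numbered 8616592 in MESC and 6583644 in MEF. Short genes took 21346 MESC reads (0.249% of those outside the mitochondrial genome) and 15963 MEF reads (0.243%). Pluripotency markers had 2188 reads over 6 genes in MESC and 5 over the same genes in MEF, whereas 5 fibroblast markers had 306 in MESC and 12507 in MEF, the lowest fibroblast count in MESC being that of Postn with 3. What part of the MESC reads came from the feeder cells was not tested. Intervals of a ratio, in parentheses, are exact, at the 95% level, and cover the error of counting alone, since reads that carry no molecular identifier may be copies of 1 molecule. In bulk samples, fewer cells of a kind and less transcription per cell cannot be told apart.

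Among short genes are the immediate early genes, whose small size goes with a fast answer to a signal, the chemokine genes, which call immune cells, and the metallothionein genes, which answer heavy metals. A TATA box lies shortly before the start of many such inducible genes and fixes the base at which transcription begins, whereas housekeeping promoters usually lie in CpG islands and start at many bases. Metal-responsive transcription factor 1 binds metal response elements before the metallothionein genes.

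The promoters of 12 short genes that the results below turn on are given from 100 bp before the annotated start to 30 bp after its first base, read 5′ to 3′ on the gene's own strand of mm9. The genes and the motifs were chosen after their values had been seen. Capitals mark TATAA or ATAAA on the gene's strand between 40 and 16 bp before the start or, in Mt1 and Mt2 alone, the metal response core TGCACNC or TGCGCNC on either strand.
Ier2, chr8:87186722-87186851, minus strand: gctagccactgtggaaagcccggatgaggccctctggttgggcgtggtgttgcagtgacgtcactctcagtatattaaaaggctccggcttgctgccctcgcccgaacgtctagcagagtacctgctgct
Ier3, chr17:35958529-35958658, plus strand: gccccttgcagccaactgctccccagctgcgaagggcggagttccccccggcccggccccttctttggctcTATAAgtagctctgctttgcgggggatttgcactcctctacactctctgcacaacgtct
Junb, chr8:87502588-87502717, minus strand: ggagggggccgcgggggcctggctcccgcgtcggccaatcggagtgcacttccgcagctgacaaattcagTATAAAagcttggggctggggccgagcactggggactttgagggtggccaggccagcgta
Gadd45g, chr13:51941947-51942076, plus strand: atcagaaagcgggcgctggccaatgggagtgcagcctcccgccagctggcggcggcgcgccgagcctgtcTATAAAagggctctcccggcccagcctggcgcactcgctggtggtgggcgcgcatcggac
Id1, chr2:152561887-152562016, plus strand: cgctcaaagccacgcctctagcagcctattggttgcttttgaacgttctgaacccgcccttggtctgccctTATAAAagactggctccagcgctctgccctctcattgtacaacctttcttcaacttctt
Hes6, chr1:93309770-93309899, minus strand: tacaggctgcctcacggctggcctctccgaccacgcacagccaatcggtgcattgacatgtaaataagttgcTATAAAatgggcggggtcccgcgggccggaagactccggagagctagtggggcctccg
Cxcl1, chr5:91320167-91320296, plus strand: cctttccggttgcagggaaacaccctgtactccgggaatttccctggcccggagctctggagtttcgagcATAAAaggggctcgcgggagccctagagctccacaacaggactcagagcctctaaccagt
Ccl2, chr11:81848973-81849102, plus strand: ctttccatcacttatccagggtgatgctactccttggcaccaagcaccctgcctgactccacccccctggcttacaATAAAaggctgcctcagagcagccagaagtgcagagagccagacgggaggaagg
Ccl7, chr11:81859114-81859243, plus strand: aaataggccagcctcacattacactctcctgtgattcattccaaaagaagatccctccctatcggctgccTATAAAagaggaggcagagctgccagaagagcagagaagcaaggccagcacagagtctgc
Mt1, chr8:96702889-96703018, plus strand: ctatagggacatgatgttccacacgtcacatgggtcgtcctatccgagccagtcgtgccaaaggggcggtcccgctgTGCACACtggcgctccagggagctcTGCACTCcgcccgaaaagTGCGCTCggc
Mt2, chr8:96696418-96696547, plus strand: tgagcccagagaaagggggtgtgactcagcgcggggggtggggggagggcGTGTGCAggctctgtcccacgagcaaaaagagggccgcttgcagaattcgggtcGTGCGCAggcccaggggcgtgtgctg
Utf1, chr7:147129588-147129717, plus strand: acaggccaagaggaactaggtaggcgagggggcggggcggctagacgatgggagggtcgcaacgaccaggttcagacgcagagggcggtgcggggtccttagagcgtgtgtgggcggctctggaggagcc

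The first question was how many short genes carried polymerase. A gene was called active where the lower bound of its read density over the whole gene lay above the intergenic background. That background, averaged over both strands, was 0.187 reads per kb of strand in MESC and 0.110 in MEF, so a lower count sufficed in MEF. For example, 2 reads sufficed for Gpr62 (1968 bp) in MEF but not for Wfdc10 (1425 bp) in MESC. In MESC 616 of the 1852 short genes were active (33.3%) and in MEF 492 (26.6%), against 64.5% and 60.6% of all coding genes. The share was higher in longer classes: genes of 2 to 5 kb were active in 57.0% of cases in MESC and 50.5% in MEF, and those of 5 to 20 kb in 69.8% and 65.3%. A longer gene reaches the bound at a lower density, so length enters this share by itself. Just under the length limit, 37.2% of the 94 genes of 1900 to 1999 bp were active in MESC and 30.9% in MEF, and just over it 48.6% and 40.3% of the 72 genes of 2000 to 2100 bp.

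Most active short genes were active in both cell types. Activity was found in both libraries for 431 genes (70.0% of those active in MESC and 87.6% of those active in MEF), in MESC alone for 185 and in MEF alone for 61, and 988 of the 1852 had no read in either library. The same split was not counted over all coding genes, of which 64.5% were active in MESC and 60.6% in MEF, so it is not shown to be particular to short genes. Active genes differed widely in level, from 0.180 to 94.1 RPKM (reads per kb of gene, scaled to the library's reads outside the mitochondrial genome) in MESC with a median of 1.59, and from 0.155 to 109 RPKM in MEF with a median of 1.83. These medians lay close to those of active genes of 2 to 5 kb, 1.57 RPKM in MESC and 1.75 in MEF.

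Activity went with the kind of gene model. Genes with a name of their own were active in 39.0% of cases in MESC and 33.1% in MEF, and predicted models in 29.7% and 22.5%. Genes with 4 or more exons were active in 51.6% of cases in MESC and 42.9% in MEF, and those with 1 exon in 31.6% and 24.5%. Where the start of another gene lay within 2000 bp, 64.2% of short genes were active in MESC and 57.3% in MEF, against 27.6% and 20.9% where none did. In MESC 90 of the 616 active short genes had a lower density than the 2000 bp before them on the same strand, as had 83 of 492 in MEF. The same count was not made for longer genes, so it is not shown to be particular to short genes. The part of neighbouring genes in the reads of short genes was not tested.

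The share of active genes also went with how unique their sequence was. In 938 short genes at least 90% of the 35-base windows stood once in the genome, and of these 42.6% were active in MESC and 36.7% in MEF. No window was unique in 142 genes, of which 3.52% were active in MESC and 2.11% in MEF. Reads at positions with a copy elsewhere made up 12.4% of the MESC reads and 10.0% of the MEF reads in short genes. The treatment of such reads is not given in the sources used here, and the part of sequence copies in these shares was not tested.

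Promoters of active and inactive short genes differed in base composition. The letters GGGCGG, searched on both strands over the 250 bp before the start, stood in 244 of the 677 short genes active in either cell type and in 71 of the 1175 that were not (6.04%), against 55.5% of active longer coding genes. The ratio of observed to expected CpG had a median of 0.545 in active short genes, 0.195 in inactive ones and 0.723 in active longer genes. TATAA or ATAAA between 40 and 16 bp before the start stood in 6.94% of active and 12.7% of inactive short genes, against 3.14% of active and 14.0% of inactive longer genes and 6.25% of all coding genes.

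Gene groups differed in how many of their short members were active. All 8 genes of mitochondrial ribosomes and protein import and all 6 genes of RNA polymerase, the spliceosome and the nucleolus were active in both MESC and MEF. At the other end, 60 of 72 G-protein coupled receptor genes, 63 of 73 genes of keratin-associated and cornified envelope proteins and 22 of 23 defensin and host defence genes had no read in either library, against 53.3% of all short genes. At least 90% unique windows were found in 56 of these receptor genes, 26 of the keratin group and 9 of the defensin group. Of the receptor genes 6 were active in MESC and 4 in MEF, and of the keratin group 1 and 3. In the keratin group Krtap1-5 counted as active with 2 MEF reads, whereas Sprr1a with 2 MESC reads did not. None of the defensin genes was active, and the only one with reads, Wfdc10, had 2 in MESC and 0 in MEF. Of 22 sperm chromatin and testis genes, 6 were active in MESC and 5 in MEF, and of 27 genes of hormones, neuropeptides and binding proteins 12 and 10.

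**Figure D1:**
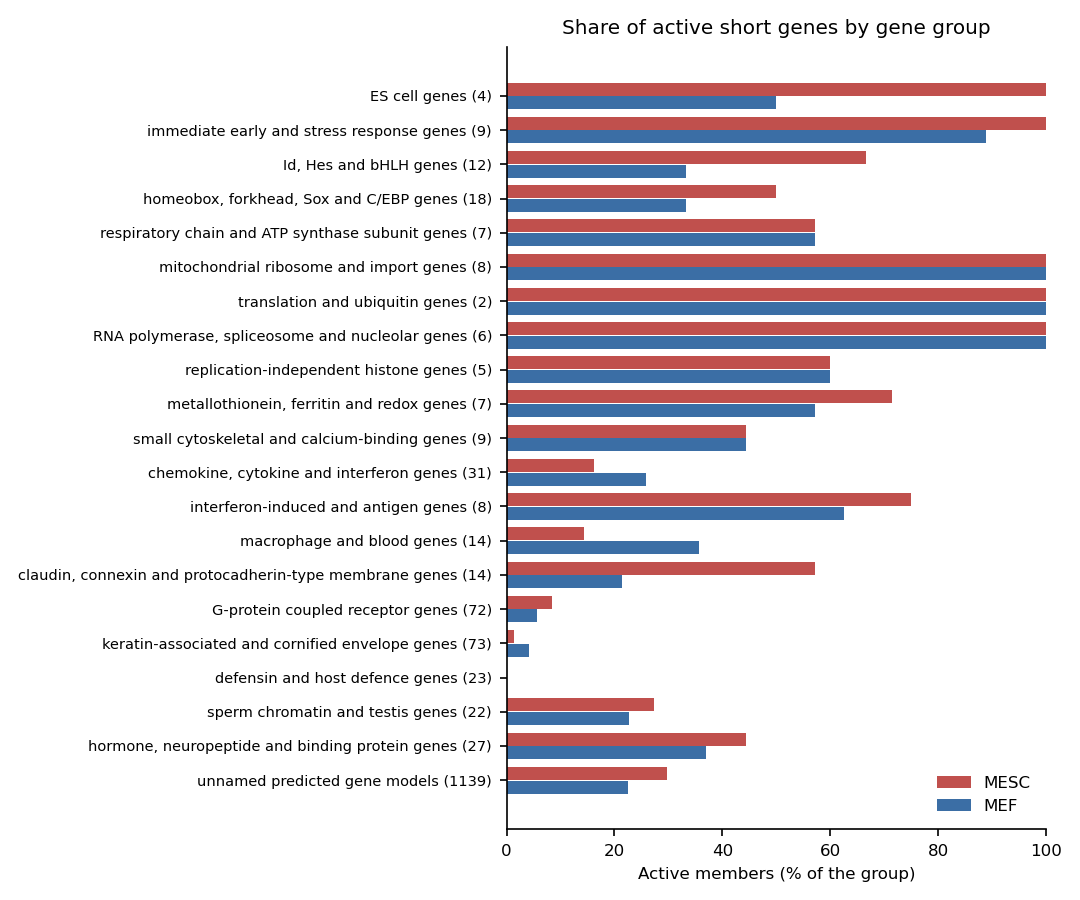
Share of active short genes (horizontal axis, % of the group) in each gene group, with the number of members in parentheses, MESC bars above MEF bars. All 8 mitochondrial ribosome and import genes were active in both libraries and none of the 23 defensin and host defence genes in either.

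The second question was which short genes carried more polymerase in one cell type. Reads over the whole gene were compared for the 129 short genes with at least 50 reads in 1 library, a fold being the ratio of densities, with 3 reads standing for any lower count. A difference of 4-fold or more was found for 12 genes with the higher density in MESC (9.30%) and for 8 with the higher density in MEF (6.20%), and the corresponding shares of all 9991 coding genes compared the same way were 7.21% and 5.3%. Over the first 2000 bp of all coding genes, a window closer in length to the short genes, the shares were 3.34% and 4.77% of 4574 genes. The split was 12 to 8 as scaled to all nuclear reads and 8 to 10 with TMM or median ratio factors. The median log2 ratio of MESC over MEF was 0.26 over the 129 short genes and 0.26 over all coding genes compared, and with TMM factors it was 0.03 over the short genes. Of the 129, 87 lay within 2-fold (67.4%, against 69.8% of coding genes of at least 2000 bp). Of the genes past 4-fold, 6 of 12 in MESC and 1 of 8 in MEF had under 90% unique windows.

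**Figure D2:**
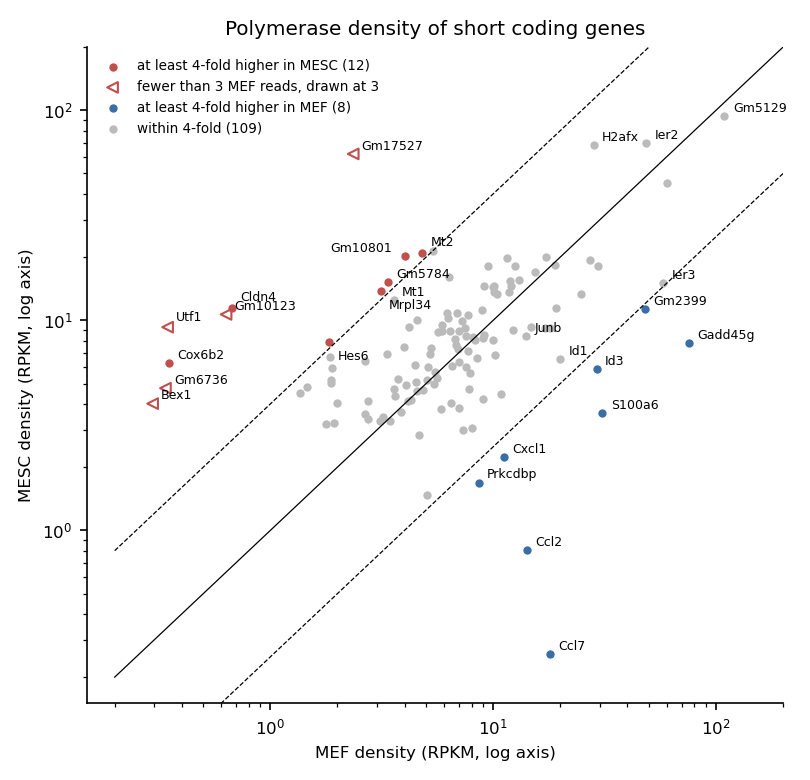
Density of the 129 short genes with at least 50 reads in 1 library, MESC on the vertical and MEF on the horizontal axis (RPKM, both axes logarithmic), the solid line marking equal density and the dashed lines 4-fold. Most genes lie between the dashed lines, 12 above the upper one and 8 below the lower one, and open triangles are genes with fewer than 3 MEF reads.

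The short ES cell genes with enough reads were higher in MESC. Utf1, a chromatin-bound factor of undifferentiated cells (chromosome 7, 147129688 to 147131008, 2 exons), had 105 reads in MESC against 0 in MEF. With 3 reads in place of the MEF count this was 26.8-fold higher in MESC, and the interval of the counts as they stood began at 21.4. Its promoter, shown above, holds neither TATAA nor ATAAA in the window searched. Cldn4, a claudin of tight junctions (chromosome 5, 135420996 to 135422804, 1 exon), had 178 reads in MESC against 8 in MEF, a 17.1-fold difference (8.47 to 40.1). At least 99.9% of the windows of both genes were unique. Dppa5a, an RNA-binding protein gene of ES cells with copies in the genome (16.9% of its windows unique), had 31 reads in MESC against 0 in MEF. With 3 reads in place of 0 that was 7.92-fold higher (interval of the counts as they stood from 6.07), but under the 50 reads asked for.

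All 4 short ES cell genes were active in MESC and 2 in MEF, and the 2 with at least 50 reads, Utf1 and Cldn4, were past 4-fold, with a median log2 ratio of 4.42. Beside Dppa5a, the remaining member, Sox15, a Sox-family factor, held 13 reads in MESC and 5 in MEF, a ratio of 1.99 whose interval spanned 1 (0.667 to 7.14), beside 172 and 92 reads in the 2000 bp before it. Among 14 genes of claudins, connexins and like membrane proteins, 8 were active in MESC and 3 in MEF, and 1 was compared, Cldn4, which also belongs to the ES cell list. Cldn5, known from endothelium, had 43 reads in MESC against 0 in MEF. With the MEF count set to 3 it was 11.0-fold higher in MESC, the interval of the counts as they stood beginning at 8.56. The longer endothelial markers Pecam1, Cdh5, Tek and Vwf had 370 reads together in MESC and 136 in MEF. That is 43.2 RPM (reads scaled to library size) in MESC and 20.7 RPM in MEF. Each of the 4 genes had reads in both libraries, but they did not all go the same way. Pecam1 held 139 reads in MESC and 36 in MEF, Tek 158 and 75, and Vwf 61 and 14. Cdh5 held 12 in MESC and 11 in MEF, a slightly higher density in MEF (0.0327 RPKM in MESC, 0.0390 in MEF). The part of endothelial cells in the Cldn5 reads was not tested.

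Most mitochondrial genes stayed within 4-fold, with a pair of exceptions. Cox6b2, the testis form of a cytochrome c oxidase subunit (chromosome 7, 4703396 to 4704696), had 70 reads in MESC against 3 in MEF, a ratio of 17.9 (5.87 to 88.8). Mrpl34, a protein of the large mitochondrial ribosome subunit, held 98 reads in MESC and 17 in MEF and was 4.42-fold higher in MESC (2.62 to 7.89), which fell under 4-fold with TMM or median ratio factors. The start of another gene lay 1269 bp from that of Mrpl34.

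Timm13, a chaperone of the mitochondrial intermembrane space, held 129 reads in MESC and 72 in MEF (1.37-fold, 1.02 to 1.86). Romo1, a small protein of the inner membrane, held 127 in MESC and 87 in MEF (1.12-fold, 0.845 to 1.49), and Cox5b held 54 and 43 (0.963-fold, 0.633 to 1.47). Of 7 respiratory chain and ATP synthase genes, 4 were active in MESC and 4 in MEF, and the compared ones were Cox6b2 and Cox5b, with a median log2 ratio of 2.05. Over the 6 mitochondrial ribosome and import genes compared, 1 was past 4-fold in MESC, none in MEF, and the median log2 ratio was 0.47 beside 0.26 over all coding genes.

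Genes of the basal machinery did not pass 4-fold in either direction. Of 6 genes of RNA polymerase, the spliceosome and the nucleolus, the 4 compared had a median log2 ratio of 0.08. Polr2i, a subunit of RNA polymerase II, held 57 reads in MESC and 43 in MEF (1.02-fold, 0.672 to 1.55), and the Mediator subunit gene Med11 held 88 and 65 (1.04-fold, 0.745 to 1.45). The sign of the log2 ratio changed under some alternatives for Romo1, Polr2i, Med11 and Lsm10 and for Gpx1 and Tmem223 below. Nop10, a protein of box H/ACA ribonucleoproteins, stood furthest from 1 among them, with 107 reads in MESC and 37 in MEF (2.22-fold, 1.51 to 3.32). Of the 2 genes of translation and ubiquitin-like proteins, Fau held 123 reads in MESC and 60 in MEF, with 78.6% of its windows unique and another start at 142 bp. The other, Isg15, an interferon-induced modifier, held 16 in MESC and 46 in MEF.

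The histone genes outside the clusters had more reads in MESC, within 4-fold. H2afx, the variant phosphorylated at DNA breaks (chromosome 9, 44142798 to 44144154, 1 exon), had 796 reads in MESC against 252 in MEF, a 2.42-fold difference (2.10 to 2.80). H2afj held 252 in MESC and 76 in MEF (2.54-fold, 1.96 to 3.33), and the linker histone gene H1fx held 24 and 7 (2.63-fold, 1.10 to 7.22). Of the 5 genes in the group these 3 were active in both MESC and MEF, and the 2 compared had a median log2 ratio of 1.31. Each of the 3 intervals lay above 1, and H2afx and H2afj stayed higher in MESC under every alternative in which they were measured. With H2afx at 68.4 RPKM in MESC and 28.3 in MEF, it was among the densest short genes of MESC.

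The metallothionein genes, neighbours on chromosome 8, were read more in MESC. Mt2 (96696518 to 96697467) had 171 reads in MESC against 30 in MEF, a 4.37-fold difference (2.95 to 6.67), and Mt1 (96702989 to 96704225) held 132 and 29, a 3.49-fold difference (2.32 to 5.41). Mt2 fell under 4-fold with TMM or median ratio factors, with each position counted once, and with MESC reads of 36 bases alone. Both genes thus lay on either side of the same threshold at similar values. The third neighbour, Mt3, a form known from brain, held 16 reads in MESC and 7 in MEF (1.75-fold, 0.682 to 5.04).

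The promoters of both genes hold the metal response core within the 130 bp shown, at 3 places in Mt1 and at 2 in Mt2. Of these, 1 in each promoter lay before the annotated start, and 2 in Mt1 and 1 in Mt2 lay after it. The most-read position of Mt2 lay 166 bp after the annotated start in both libraries, with 42 of 171 reads in MESC and 12 of 30 in MEF. That of Mt1 lay at 399 bp in MESC and 53 bp in MEF, with 3 reads in each. In any tie the position nearest the start was taken. Which start was used was not tested. At least 1 such core stood in 16.3% of all coding promoters over the same window, at least 2 in 3.20% and at least 3 in 0.674%. Of the other promoters shown, that of Gadd45g holds 2 such cores and those of Ier3 and Junb 1 each. Gpx1, a glutathione peroxidase gene of the same group, stayed near 1, with 168 reads in MESC and 132 in MEF (0.976-fold, 0.772 to 1.24). Of the 7 members of the metallothionein, ferritin and redox group, 3 were compared and 1 was past 4-fold, in MESC, with a median log2 ratio of 1.80.

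**Figure D3:**
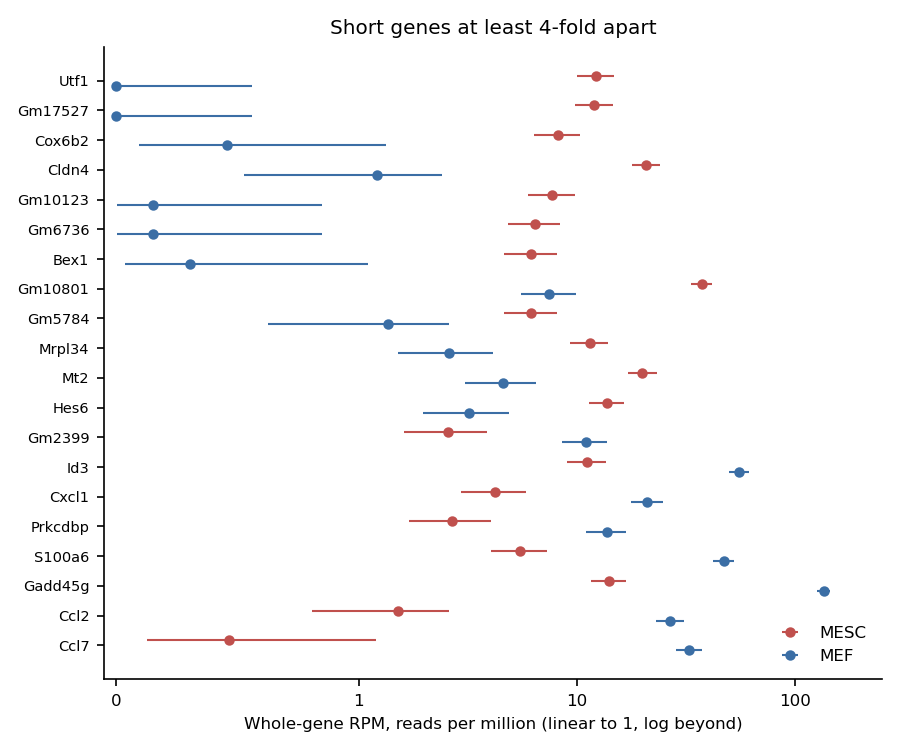
Whole-gene reads scaled to library size (horizontal axis, RPM, linear up to 1 and logarithmic beyond) of the 20 short genes at least 4-fold apart, MESC in red and MEF in blue, with exact 95% intervals for counting error. From Utf1 to Hes6 MESC is the higher library, and from Gm2399 to Ccl7 MEF.

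The 2 highest ratios of MEF over MESC among the compared short genes were those of chemokine genes. Ccl7 (chromosome 11, 81859214 to 81861027), which attracts monocytes, held 4 reads in MESC and 214 in MEF, 69.8-fold higher in MEF (26.9 to 258). Its neighbour Ccl2 (81849073 to 81850955), with the same known function, held 13 in MESC and 176 in MEF, 17.7-fold higher in MEF (10.1 to 33.8). Cxcl1, which attracts neutrophils (chromosome 5, 91320267 to 91322141), held 36 in MESC and 138 in MEF, 5.00-fold higher in MEF (3.44 to 7.43).

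Those were the 3 compared of 31 chemokine, cytokine and interferon genes, and all 3 were past 4-fold in MEF, with a median log2 ratio of -4.14. Of the 31, 5 were active in MESC and 8 in MEF, and 20 had no read in either library. All 3 compared genes hold a TATAA or ATAAA before the start in the promoters shown above. Cxcl1 fell under 4-fold with MESC reads of 36 bases alone, and 21 of its 36 MESC reads lay at 1 position. Il23a, a cytokine subunit gene, went the other way at low counts, with 13 reads in MESC and 1 in MEF. The ratio of the counts as they stood was 9.97 (1.50 to 424), and that with the MEF count set to 3 was 3.32.

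Markers of macrophages, cells that also express these chemokines, had more reads in MEF as a sum. The 6 markers Cd14, Cd68, Csf1r, Emr1, Lyz2 and Tyrobp had 186 reads together in MESC and 496 in MEF, which is 21.7 RPM (reads scaled to library size) in MESC and 75.5 RPM in MEF. Tyrobp was at 0 in MESC, and each of the 6 had reads in MEF, Lyz2 with 1 in MESC and 93 in MEF. The short gene Cd14, a lipopolysaccharide co-receptor, held 21 in MESC and 15 in MEF, a ratio of 1.07 whose interval spanned 1 (0.527 to 2.24). The short gene Cd68, a lysosomal glycoprotein of macrophages, held 153 in MESC and 230 in MEF (1.96-fold higher in MEF, 1.59 to 2.42). The 2000 bp before Cd68 held 557 reads on its strand in MESC and 260 in MEF, a higher density than in the gene, and without Cd68 the sum over 5 markers was 33 in MESC and 266 in MEF. The part of macrophages in the chemokine reads was not tested. Over 14 short macrophage and blood genes, 2 were active in MESC and 5 in MEF.

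Interferon-induced and antigen genes showed no member past 4-fold, with 1 of 8 compared. Ifitm3, an antiviral membrane protein gene, held 43 reads in MESC and 70 in MEF, 2.12-fold higher in MEF (1.43 to 3.18). Ly6g5b held 41 in MESC and 39 in MEF, with an interval of the ratio that spanned 1 (0.507 to 1.28). Of these 8 genes 6 were active in MESC and 5 in MEF.

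Immediate early and stress response genes were mostly active in both cell types and unequal in direction. Gadd45g, a stress-inducible regulator of growth arrest (chromosome 13, 51942047 to 51943837, 4 exons), had 120 reads in MESC against 887 in MEF, 9.64-fold higher in MEF (7.96 to 11.8). Ier3 (chromosome 17, 35958629 to 35959868) had 160 in MESC and 473 in MEF, 3.86-fold higher in MEF (3.22 to 4.64), just under the threshold. Ier2 (chromosome 8, 87185230 to 87186751, 1 exon) had the opposite sign, with 908 in MESC and 486 in MEF, 1.43-fold higher in MESC (1.28 to 1.60).

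Junb, an AP-1 subunit gene, held 130 reads in MESC and 167 in MEF (1.68-fold higher in MEF, 1.32 to 2.12). Of the 9 short members of this group all were active in MESC and 8 in MEF, and 1 of the 6 compared was past 4-fold, Gadd45g. The median log2 ratio of the 6 was -1.58, beside 0.26 over all coding genes. Ier2 at 69.6 RPKM in MESC and 48.6 in MEF, and Gadd45g at 7.82 and 75.4, were among the densest short genes of at least 1 library.

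The Id genes, whose proteins lack a DNA-binding domain and block basic helix-loop-helix factors, were read more in MEF. Id3 (chromosome 4, 135699412 to 135701307) had 95 reads in MESC and 363 in MEF, 4.98-fold higher in MEF (3.97 to 6.32). Id1 (chromosome 2, 152561987 to 152563146) had 65 in MESC and 152 in MEF, 3.05-fold higher in MEF (2.27 to 4.14). Hes6, a Hes-family factor (chromosome 1, 93308060 to 93309799), was on the other side, with 118 in MESC and 21 in MEF, 4.31-fold higher in MESC (2.69 to 7.22). Hes6 fell under 4-fold with TMM or median ratio factors, with each position counted once and with MESC reads of 36 bases alone. Of 12 genes in the group, 8 were active in MESC and 4 in MEF, and the 3 compared had a median log2 ratio of -1.61.

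Genes for other DNA-binding regulators were mostly low. Among 18 homeobox, forkhead, Sox and C/EBP genes 9 were active in MESC and 6 in MEF, and 1, Cebpb, had 50 reads in a library, with 19 in MESC and 50 in MEF (3.43-fold higher in MEF, 1.99 to 6.17). Foxh1, the DNA-binding partner of Smad proteins in Nodal signalling, had 49 reads in MESC against 0 in MEF. With the 0 set to 3 Foxh1 was 12.5-fold higher in MESC, the interval of the counts as they stood beginning at 9.80. Another start lay 1667 bp from that of Foxh1, and the 2000 bp before it held 38 reads on its strand in MESC and 6 in MEF. Foxs1 had 0 in MESC against 20 in MEF, 8.70-fold higher in MEF by the same rule, with an interval from 6.44. These forkhead genes stood apart between the libraries at counts below the 50 reads asked for.

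Both small calcium-binding and cytoskeletal genes compared had the higher density in MEF. S100a6, a calcium-binding protein of proliferating cells (chromosome 3, 90416816 to 90418336), had 47 reads in MESC against 309 in MEF, 8.58-fold higher in MEF (6.29 to 11.9). Tmsb10, an actin-binding thymosin, held 109 in MESC and 156 in MEF (1.87-fold higher in MEF, 1.45 to 2.41), with 75.1% of its windows unique. Of the 9 genes of this group, 4 were active in MESC and 4 in MEF, and 1 of the 2 compared, S100a6, was past 4-fold. Outside the lists, Prkcdbp, a protein of caveolae (chromosome 7, 112629121 to 112630711), held 23 in MESC and 90 in MEF, 5.10-fold higher in MEF (3.20 to 8.46).

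Among the germ cell, receptor and hormone genes with the most reads, several stood apart between the libraries. Rbmxl2, an RNA-binding protein gene of germ cells, had 30 reads in MESC against 0 in MEF. With the 0 set to 3 Rbmxl2 was 7.67-fold higher in MESC, the interval of the counts as they stood beginning at 5.86. Tssk6, a testis kinase gene whose start lay 374 bp from another, held 30 in MESC and 14 in MEF, with 101 and 31 reads in the 2000 bp before it. The serotonin receptor gene Htr1b, with another start 685 bp away, had 0 in MESC against 16 in MEF, the highest count among the 72 receptor genes. With the 0 set to 3 Htr1b was 6.96-fold higher in MEF, the interval of the counts as they stood beginning at 5.03. The 2000 bp before Htr1b held 86 MEF reads on its strand, a higher density than in the gene. Ucn2, a stress neuropeptide gene, held 3 in MESC and 15 in MEF (6.52-fold higher in MEF, 1.84 to 35.1). Among the 27 hormone, neuropeptide and binding protein genes 1 was compared, Apoa1bp, a NAD(P)HX epimerase gene, with 55 in MESC and 25 in MEF (1.69-fold, 1.03 to 2.82).

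Predicted models made up 40 of the 129 compared genes, and 5 of them were past 4-fold in MESC and 1 in MEF, with a median log2 ratio of 0.44. Gm17527 (chromosome 4, 51267042 to 51267235, 7.73% of windows unique) held 103 reads in MESC and 0 in MEF, Gm10123 (0.139% unique) held 66 and 1, and Gm6736 (6.00% unique) held 55 and 1. Gm10801 held 321 in MESC and 49 in MEF, and its ratio of 5.02 (3.71 to 6.93) fell to a log2 ratio of 1.00 with each position counted once and 0.94 with MESC reads of 35 bases alone. In Gm17527, Gm10123 and Gm6736 the median window had 4, 10 and 4 copies in the genome. Whether their reads stem from other copies was not tested. Bex1, an adaptor protein gene of the X chromosome with 60.7% of windows unique, held 53 in MESC and 2 in MEF. The ratio of the counts as they stood was 20.3 (5.35 to 172), that with the MEF count set to 3 was 13.5, and none of its reads lay in its first 300 bp.

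The densest short gene of both libraries was a predicted model, Gm5129 (chromosome 5, 30062177 to 30062476, 1 exon), with 94.1 RPKM in MESC and 109 in MEF. Its 242 MESC and 215 MEF reads gave a ratio of 0.863 (0.715 to 1.04). Every window in it was unique, and the start of another gene lay 248 bp away. Only 2 short genes shared sequence with the mitochondrial genome, Gm10222 and Gm10925 on chromosome 1, with 100% of their windows found there. They held 45 and 93 reads in MESC and 45 and 133 in MEF. On the opposite strand of the upstream 500 bp lay 207 and 167 reads in MESC and 338 and 314 in MEF. Both genes stayed in the counts of active short genes and of upstream antisense reads, and Gm10925 stayed among the compared genes. Whether their reads stem from the mitochondrial genome was not tested.

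The third question was where polymerase lay along short genes. The first 300 bp held a median of 46.4% of a gene's reads in MESC (105 genes of at least 800 bp with 50 reads) and 37.8% in MEF (76 genes), in a window that was 19.5% and 18.8% of the median length. Genes of 2 to 5 kb had 24.3% of their reads there in MESC and 23.2% in MEF, over 8.13% and 8.02% of the length. Averaged over genes, the bin of 0 to 50 bp after the start held the most sense reads in both libraries, 13.2% of gene reads in MESC and 11.0% in MEF, against 9.37% and 9.08% for genes of 2 to 5 kb. A bin of 50 bp is a larger part of a shorter gene, so length enters these percentages by itself. The bin from 950 bp after the start was also higher in short genes, with 1.86% in MESC and 2.11% in MEF, against 1.16% and 1.445%.

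**Figure D4:**
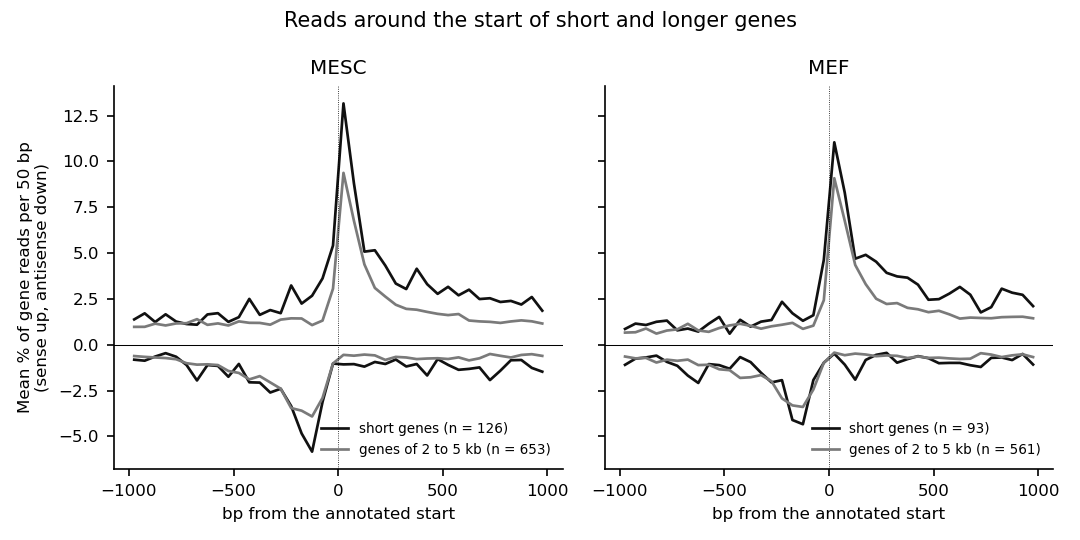
Mean reads per 50 bp bin as a percentage of a gene's own reads (vertical axis, sense upward and antisense downward) by distance from the annotated start in bp, for short genes (black) and genes of 2 to 5 kb (grey) of at least 1000 bp with at least 20 reads and no other start within 2000 bp, MESC left and MEF right; a gene's share in a bin was limited to 100%. The sense peak lies in the bin from 0 to 50 bp and the antisense peak between 150 and 100 bp before the start in both libraries.

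The genes differed widely in this share, from 0 to 90.9% in MESC and from 0 to 95.6% in MEF. At least 80% of reads lay in the first 300 bp of 8 of 105 genes in MESC and of 5 of 76 in MEF, and under 10% in 16 and 11. Mrpl34 had 84 of 98 reads there in MESC and 13 of 17 in MEF, Hes6 had 93 of 118 and 16 of 21, and Ier2 had 645 of 908 and 334 of 486. In Gadd45g the libraries stood further apart, with 73 of 120 in MESC (60.8%) and 298 of 887 in MEF (33.6%), as did Cxcl1, with 28 of 36 in MESC (77.8%) and 29 of 138 in MEF (21.0%).

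In other genes the first 300 bp were nearly empty. Id3 had 0 of 95 reads there in MESC and 4 of 363 in MEF, and its most-read position lay 327 bp after the annotated start in both libraries. S100a6 had 2 of 47 in MESC and 14 of 309 in MEF, and H2afx 64 of 796 and 23 of 252. Positions were counted from the start of the longest annotated transcript, and which start was used was not tested.

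At some short genes the most-read position was the annotated start or lay just after it. Among genes with at least 50 reads, the most-read position lay 0 to 4 bp after the annotated start in 13 of 116 in MESC and in 9 of 80 in MEF, 14 genes in all, 8 of them in both libraries. Where positions tied for the most reads, that nearest the start was taken, so these counts include ties. For example, Utp3 in MEF had 55 reads at 50 positions, with 2 at the position taken. How many of the 14 genes rest on a tie was not counted. The most-read position was not sought in longer genes, so the shares of 13 of 116 and 9 of 80 are not shown to be particular to short genes. That position held from 3.16% to 21.3% of the gene's reads in the 13 MESC genes, and from 1.24% in Gadd45g to 123 of 473 reads in Ier3 in the 9 MEF genes. The median over all short genes with 50 reads was 6.43% in MESC and 5.51% in MEF, which 10 of the 13 in MESC and 5 of the 9 in MEF exceeded. In Ier3 the position 2 bp after the start held 34 of 160 reads in MESC and 123 of 473 in MEF. In Ier2 153 of 908 MESC reads lay 3 bp after the start and 87 of 486 MEF reads 4 bp after it, and in Junb 11 of 130 in MESC and 29 of 167 in MEF lay at the start itself.

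The other genes of this kind included Cxcl1, with 21 of 36 reads in MESC and 18 of 138 in MEF at 2 bp, and Gpx1, with 22 of 168 in MESC and 7 of 132 in MEF at the start. In Gadd45g it was 11 of 887 MEF reads, and in Utp3, a nucleolar protein gene chosen after its values were seen, 3 of 95 in MESC and 2 of 55 in MEF. These genes were chosen by their read positions, so the letters before them are a description. TATAA or ATAAA stood 40 to 16 bp before the start in 6 of the 14 (42.9%), against 9 of the 129 compared short genes (6.98%). The 6 were Ier3, Junb, Gadd45g, Id1, Hes6 and Cxcl1, in whose promoters above the capitals begin at -30 in Junb, Gadd45g and Cxcl1, at -29 in Ier3 and Id1 and at -28 in Hes6, counted from the annotated start. Ier2, with the most reads at 1 position, holds neither in that window. Its promoter above reads tatattaaaa from -30, a similar stretch that the searched letters do not match.

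Reads on the opposite strand in the 500 bp before the start, the mark of divergent transcription, were found at a lower share of short genes than of all coding genes. With no other start within 2000 bp, 177 of 431 active short genes had at least 3 such reads in MESC (41.1%) and 113 of 327 in MEF (34.6%), against 60.1% and 49.6% of all active coding genes. For genes of 2 to 5 kb the shares were 55.5% in MESC and 47.8% in MEF, and for genes over 100 kb 54.6% and 39.5%. Where no annotated gene lay on the opposite strand of the window, a condition added after seeing the data, 39.4% of 371 short genes had such reads in MESC and 32.9% of 277 in MEF, against 55.7% and 47.9% of genes of 2 to 5 kb.

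Commd5, of the COMM domain family (chromosome 15, 76730340 to 76731735), had 178 upstream antisense reads in MESC and 53 in MEF, beside 80 and 17 in the gene. Ufsp1, a protease gene of the UFM1 pathway, had 175 in MESC and 104 in MEF, beside 42 and 19 in the gene. Pycard, an adaptor protein gene of the inflammasome, had 136 upstream antisense reads in MESC and 120 in MEF with only 4 and 0 reads in the gene. In all 3 the opposite strand of the upstream window held more reads than the gene's own strand. Antisense reads also lay inside the gene, 274 in MESC and 169 in MEF for Pycard and 160 and 87 for Ufsp1, against 5 and 3 for Commd5. More antisense than sense reads in the gene were found for 56 of the 445 active short genes with no gene on the opposite strand in MESC and for 39 of 341 in MEF. The corresponding shares of longer genes were not counted. The 101 MEF reads upstream of Gm17329 lay on an annotated gene of the opposite strand. At the other extreme, Ier2 had 7 in MESC and 2 in MEF beside its 908 and 486 gene reads.

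The last question was how far polymerase went on beyond the annotated end. With no gene on the same strand in the next 5 kb, the density over those 5 kb was a median of 0.258 of that in the gene in MESC (97 genes) and 0.284 in MEF (66 genes). It was 0.571 in MESC and 0.530 in MEF for genes of 2 to 5 kb, and 1.36 and 1.54 for genes of 20 to 100 kb. In short genes the median fell kb by kb, being 0.48, 0.34, 0.13, 0.05 and 0.03 of the gene's density in MESC and 0.51, 0.42, 0.13, 0.07 and 0.03 in MEF. Since the reads at the start weigh more in a short gene, the density past the end was also set against that from 300 bp on, which gave 0.472 in MESC and 0.472 in MEF, still below the 0.754 and 0.732 of genes of 2 to 5 kb.

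**Figure D5:**
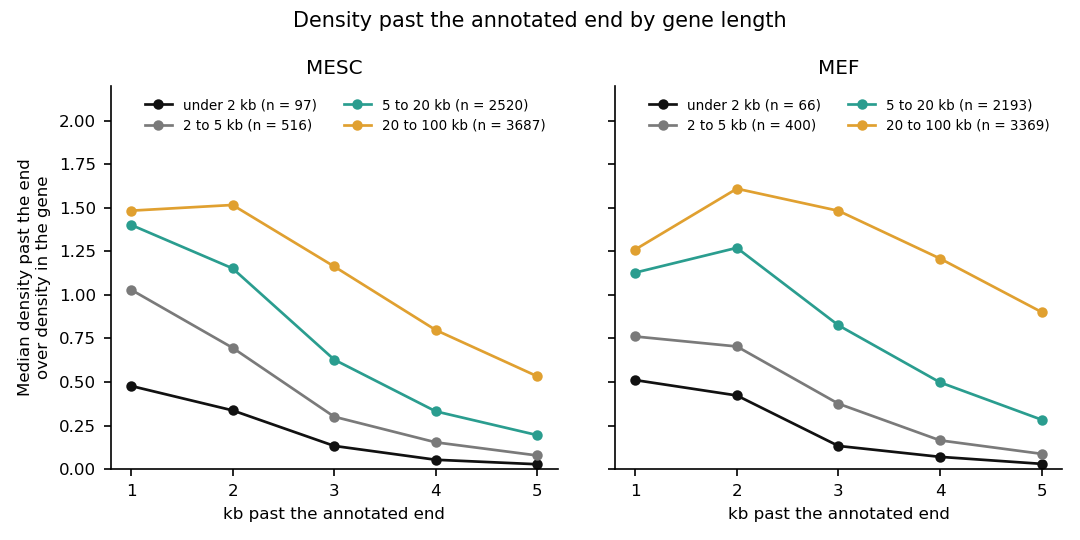
Median density in each kb past the annotated end as a ratio to the density in the gene (vertical axis) by kb past the end, for genes under 2 kb (black) and 3 classes of longer genes, MESC left and MEF right. The line of the short genes is the lowest at every kb in both libraries and falls to 0.03 in the fifth kb.

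At least the gene's density past the end was found in 5 of 97 short genes in MESC (5.15%) and 4 of 66 in MEF (6.06%). The shares were 20.2% in MESC and 19.25% in MEF for genes of 2 to 5 kb, and 56.9% and 65.2% for all coding genes. Cox6b2 was 1 of the 5 short genes in MESC, with 291 reads past the end beside 70 in the gene. Tmem223 had 442 reads past the end in MESC and 272 in MEF beside 106 and 79 in the gene, with 80.4% of its windows unique. Ier5l, an immediate early response gene, had 96 in MESC and 356 in MEF beside 41 and 82.

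Genes with much polymerase differed in how soon it left. S100a6 had 25, 44, 46, 18 and 8 reads in the successive kb past its end in MESC and 254, 272, 258, 78 and 26 in MEF, so the first 3 kb were nearly level in MEF. Gadd45g had 47, 15, 6, 3 and 1 in MESC and 256, 308, 59, 21 and 1 in MEF, most of them within 2 kb. In H2afx, 595 of 715 MESC reads and 230 of 343 MEF reads past the end lay in the first kb, and in Ccl2 199 of 231 MEF reads did, with 4 past the end in MESC. At the lowest end, the predicted models Gm10123 and Gm6736 had 0 reads past the end in MESC, beside 66 and 55 in the gene. Gm12355, with 33.9% of windows unique, had 1 in MESC and 0 in MEF beside 190 and 132 in the gene. Slc25a2, a mitochondrial ornithine carrier gene of unique sequence, had 1 in MESC and 0 in MEF beside 52 and 12, with 91 and 21 in the 2000 bp before it.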

How the data were processed

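Run-on reads of 3 MESC and 2 MEF samples were used, grouped by sample title. Per the series design text, Eland placed the reads on mm9 and reads at rRNA-like repeats were removed; per the file headers, samples were pooled by cell type and repeats were not masked. Eland's version and how duplicates were handled: not given in the sources used here. Each line of the deposited files is 1 aligned read; summed over a gene these lines are raw read counts, not normalized by the authors. In a sample of every 400th line, the genome sequence fitted within 2 mismatches for 93.0% of MESC and 95.5% of MEF reads, which places the listed position at the 5′ end. At 2 loci similar to ribosomal DNA lay 11.5% of MESC and 16.4% of MEF reads, kept in the total.

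Reads were counted by 5′ end and strand (Python 3.11.15, numpy 2.4.6, pandas 2.3.3, scipy 1.17.1, numba 0.67.0) over the longest GENCODE transcript. RPKM used reads outside the mitochondrial genome. Genes with at least 50 reads in 1 library were compared, at 4-fold, with exact conditional Clopper-Pearson intervals and 3 reads for any lower count. Intergenic background lay over 10000 bp from genes. Sequences were read from NCBIM37, which is mm9. TMM (edgeR 4.0.16) and median ratio factors (DESeq2 1.42.0) served only as other scalings, beside read minimum, windows, duplicates, gene length, MESC reads of 35 and of 36 bases taken apart, and choice of genes. The intervals and the 4-fold calls were tested on simulated gene counts, and the counting of reads was not.

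Named genes were the 12 highest and 12 lowest ratios, the 8 densest per library, the 4 with the most reads per gene list, the 5 with the most upstream antisense reads, and the 5 highest and 5 lowest past the end, from which the text takes the greater part. Members and lists were chosen with earlier results of these data known. The list of stromal matrix, growth factor and receptor genes had 0 short members.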

Additional observations from a re-analysis of the deposited data

How the results depend on the processing

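No paired analysis was possible because the samples of a cell type are pooled in 1 file. Replicates could not be left out for the same reason. Of the called short genes, none changed direction under any alternative. The 12 genes higher in MESC became 39 with a minimum of 20 reads, 6 with 100 reads, 3 with each position counted once, 5 and 6 with MESC reads of 35 or 36 bases alone, 6 among genes with at least 90% unique windows, and 7 without the first 300 bp. The 8 higher in MEF became 16 with a minimum of 20 reads and 1 among genes under 1500 bp. The read minimums change how many genes are compared, and the filters on unique windows and length change which. With each position counted once, 14 of the 20 called genes still reached the minimum, 10 at 4-fold and 4 under it. The median log2 ratio of 0.26 became 0.032 with TMM and 0.019 with median ratio factors, -0.041 with 35-base and 0.025 with 36-base MESC reads alone; the cause of the values with 35-base and 36-base reads was not tested. Called genes that fell under 4-fold were Hes6, Gm5784, Mrpl34 and Mt2 with either scaling, Hes6, Gm10801, Mrpl34 and Mt2 with each position counted once, Gm2399 and Gm10801 with 35-base reads, and Hes6, Cxcl1 and Mt2 with 36-base reads.

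The active share was 13.9% in MESC and 10.0% in MEF with at least 20 reads as the rule, 42.6% and 36.7% among genes with at least 90% unique windows, 29.3% and 21.8% under 1500 bp, 30.2% and 23.1% among genes overlapping none on the other strand, and 27.6% and 20.9% with no other start within 2000 bp (added after seeing the data). Upstream antisense reads were found at 55.5% in MESC and 48.3% in MEF with 1 read asked for, 21.3% and 17.7% with 10, and 46.6% and 41.9% over 1000 bp. Density past the end over that in the gene was 0.463 in MESC over 2000 bp, 0.354 in MESC with each position counted once, and 0.472 in both MESC and MEF with gene density counted from 300 bp on (added after seeing the data). The first 150 bp held 25.7% of gene reads in MESC and 19.9% in MEF.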
